A study of Mus musculus with 16 samples.

Results

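Bone marrow cells of wild-type (WT) mice kept at 3% oxygen were compared with WT cells that had spent 6 hours in ambient air, in 8 of the 16 RNA sequencing libraries of the series and over all 6288 genes of the deposited table. The members were chosen by label alone: the 4 libraries labelled WT and hypoxia, called physioxia here, and the 4 labelled WT and air. The mice were C57Bl/6J animals aged 3 to 4 months, and both sexes were used. The cells were CD45+ marrow cells enriched for the LSK phenotype, that is, depleted of cells with lineage markers and then selected on beads for Kit and Sca1. Marrow of every group was harvested and enriched inside a chamber held at 3% oxygen. The enriched cells were then divided, and 1 share stayed in the chamber while the other was brought out to ambient air at about 21% for 6 hours, after which RNA was extracted. The time of 6 hours is that of the RNA protocol, while a general protocol of the study gives a range of 1 to 6 hours. How long the chamber share was held is not stated, so that oxygen and time after harvest cannot be told apart. The 2 Tet2-deficient groups (Tet2-/- mice, 4 air and 4 physioxia libraries, handled in the same way) serve as another genotype under the same contrast. The part of Tet2 that is deleted, and whether a library pools animals, are not given in the sources used here. Each group is described in the labels as 4 matched biological replicates. No group was harvested in air.

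LSK cells are a small fraction of marrow that holds the blood-forming stem cells and the multipotent progenitors that descend from them. Marrow has a lower oxygen tension than air. When oxygen is scarce, the prolyl and asparaginyl hydroxylases that use it as a substrate slow down, the alpha subunits of the hypoxia-inducible factors (HIF) escape degradation, and HIF dimers bind promoters and enhancers at a short core motif, raising transcripts of glucose uptake, glycolysis and feedback control. Brief exposure of marrow to air is known to lower the number of stem cells recovered, a loss named extraphysiologic oxygen shock/stress. The comparison asks which transcripts differ between cells that stayed at marrow-like oxygen and cells that were given air.

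Values are normalized counts, that is, reads per gene divided by a size factor for each library, and they are listed in the order of replicates 1 to 4 wherever 4 are given. The WT libraries hold 10.36 to 15.68 M reads over the genes of the table. WT physioxia replicate 2 stands apart: its normalized counts sum to 14.465 M, above the other WT libraries, and its 10 most abundant genes take 20.34% of the reads against a lowest WT share of 16.2%. WT air replicate 3 stands apart from the other air libraries in many of the genes described next, and so do replicates 3 and 4 of Tet2-deficient air. The labelled cell type could be checked only in part, because Ptprc, Ly6a, Cd34 and Flt3 were not analysed here. Kit, the receptor used for selection, was at 3559, 3920.3, 4588 and 4330.0 in air and at 3695, 2029, 3382 and 3827 in physioxia. The stem cell genes Slamf1 and Hlf were detected, with means of 74.9 and 562 in air and of 73.6 and 575 in physioxia. Genes of other cells were also present: the eosinophil peroxidase gene Epx ranged from 69528 to 88603 in air and from 38750.0 to 74522 in physioxia. Tet2 itself was at 855 ± 157 (SD, n = 4) in air and 731 ± 97.4 in physioxia (difference -0.22 on the log2 scale, limma adjusted p = 0.443).

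Most genes that passed the test were higher in physioxia than in air. Of 6110 genes tested, 352 (5.76%) passed an adjusted p of 0.05, of which 300 (4.91%) were higher and 52 (0.851%) lower in physioxia. A difference is the log2 of the normalized count plus 1, physioxia minus air, fitted with limma and given with its standard error. Higher genes had a median difference of 1.40, with 233 above 1, 64 above 2 and 10 above 3, while lower genes had a median of -0.89. The median over all tested genes was 0.01. Among the 300 higher genes, 277 had 4 physioxia values that all lay above the 4 air values, against 478 of all tested genes (7.82%). Of the 300, 296 were higher within every replicate number, while 1864 of all tested genes (30.5%) had every pair in 1 direction, either way. The air and physioxia values of 48 of the 52 lower genes did not overlap, against 193 of all tested genes (3.16%). Separation and agreement of pairs follow in part from the call, which rests on the same values, and lend it no support. Protein-coding genes made up 280 of the 300 higher and 37 of the 52 lower genes, against 5342 of all 6110 tested genes. The 300 higher genes had a median GC content of 49.6% and a median transcript length of 3360 bases, against 49.2% and 3176 over all tested genes. The smallest adjusted p was 0.00955, and 1189 genes (19.5%) had an unadjusted p under 0.05, of which 734 (12%) were higher and 455 (7.45%) lower.

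These counts rested on few libraries. Without WT physioxia replicate 2 the test called 165 genes, without WT air replicate 4 and without WT physioxia replicate 1 128 each, without WT air replicate 2 152, without WT air replicate 1 240, without WT physioxia replicate 3 227 and without WT physioxia replicate 4 554. Without WT air replicate 3 it called 325. When replicate 1 was left out of both groups, or replicate 2, no gene passed (1041 and 785 genes at an unadjusted p under 0.05, smallest adjusted p 0.0800 and 0.0550), and every call named in the following paragraphs was lost. All 352 genes kept their direction in each of these fits. For the 277 higher and 48 lower genes whose groups did not overlap, leaving out libraries could not change the direction. A fit of the 8 WT libraries alone called 241 genes, 221 higher and 20 lower, and among the lower genes named in the following paragraphs Tnpo2, Irgm1, Numb, Map3k1, Tmppe, Tec, Olr1, Pank4 and Sgk1 did not pass in it (adjusted p 0.0534 for Pank4 to 0.136 for Tec). Nor did Tmem160 (0.0532), Cdkn1c (0.0642), Lmo2 (0.0847) and Plvap (0.111) among the higher genes. Blocking on the replicate number raised the count to 462 genes (7.56%), 393 higher and 69 lower. DESeq2 on the recovered reads called 548 genes, of which 393 were higher, a share of 71.7% against 85.2% in the limma fit. With quantile normalization, which moved the median of all genes by -0.09, 244 of 323 calls (75.5%) were higher. The genes of the table are not a random draw: for 99.55% of them the smallest p of 4 pairwise DESeq2 comparisons among the groups was under 0.05, and when every annotated gene outside the table was counted as unchanged, no gene passed (smallest adjusted p 0.0864). WT physioxia minus air was 1 of the 4 pairwise comparisons, with 1023 genes at a DESeq2 p under 0.05. If genes entered the table partly through this contrast, the shares called and the adjusted p-values are lenient within the table too. How they were chosen is not given. The p-values therefore apply at most to the genes of this table, and the error rate of the calls among them is not known.

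**Figure D1:**
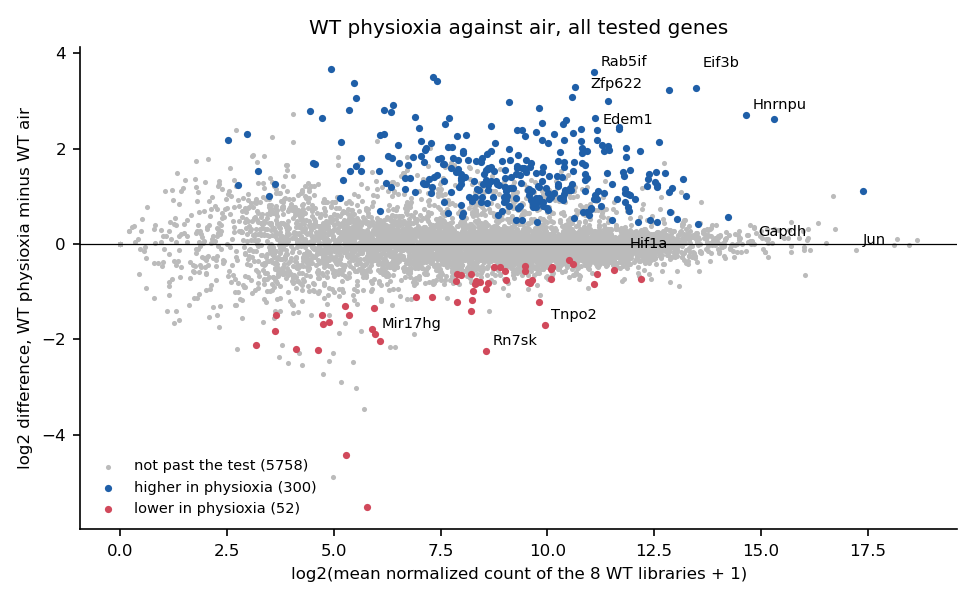
Each point is a tested gene, with the log2 of its mean normalized count over the 8 WT libraries plus 1 on the horizontal axis and the log2 difference, WT physioxia minus WT air, on the vertical axis. The 300 genes called higher lie over the whole range of levels, the 52 called lower are fewer and mostly closer to 0 (the 2 lowest points are immunoglobulin kappa variable segments), and Hif1a, Gapdh and Jun lie near the 0 line.

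The named higher genes are described by the role of each, and no functional group was tested among the 300. Groups without overlap were a condition of choice for the 12 largest named calls in each direction. For those genes the lack of overlap is no result. Of the named higher genes, 4 act in protein synthesis and quality control. Eif3b encodes a core subunit of translation initiation factor eIF3 (protein-coding, GRCm38 chromosome 5, 140419328 to 140443360). It was at 1634, 1624, 4469 and 1683 in air and at 19577, 22837, 19840.0 and 20239 in physioxia. Air replicate 3 was the highest air library, and the physioxia libraries were close to each other and all higher. The difference was 3.28 ± 0.64 (adjusted p = 0.0113). Zfp622, a zinc finger protein needed for maturation of the large ribosomal subunit, rose from 781, 1264, 3304 and 971 to 13946, 18357, 13093 and 7351 (3.23 ± 0.50, adjusted p = 0.00955). Gspt1, the translation termination factor eRF3a, rose from 567, 464, 827 and 448 to 4272, 6314, 2948 and 1838 (2.64 ± 0.56, adjusted p = 0.0144). In both, physioxia replicate 4 was the lowest physioxia library and still lay above every air library. Edem1 directs misfolded glycoproteins out of the endoplasmic reticulum for degradation (chromosome 6, 108828641 to 108859356). Its values were 641, 601, 1009.8 and 547 in air and 4986, 5157, 3491 and 1772 in physioxia (2.38 ± 0.33, adjusted p = 0.00955). The groups of Edem1 did not overlap either, with physioxia replicate 4 again nearest to air. The call for Gspt1 was lost without WT physioxia replicate 2 (adjusted p = 0.0504), whereas those for Eif3b, Zfp622 and Edem1 remained without any single library.

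The next named genes encode mostly nuclear proteins. Hnrnpu, an abundant RNA-binding protein of the nuclear matrix, was at 5376, 4857, 16233 and 4598 in air and at 46764, 33166, 44169 and 50480.0 in physioxia (2.70 ± 0.55, adjusted p = 0.0126). Sap30, a subunit of the Sin3 histone deacetylase complex, was at 354, 475, 1618 and 330.1 in air and at 4770.1, 7791, 4093 and 2416 in physioxia (3.00 ± 0.49, adjusted p = 0.00955). In both genes air replicate 3 was several times higher than the other air libraries and remained below every physioxia library. Msl3l2 rose from a mean of 32.8 ± 28.0 to 307 ± 114 (3.41 ± 0.63, adjusted p = 0.00964). Trir, a ribonuclease that interacts with telomerase RNA, rose from 446 ± 306 to 2309.8 ± 446 (2.61 ± 0.61, adjusted p = 0.0200). Cited4, a transactivator that binds the coactivator CBP, rose from 24.9 ± 5.86 to 211 ± 171 (2.67 ± 0.75, adjusted p = 0.0473). Habp4, a hyaluronan- and RNA-binding protein, rose from 14.9 ± 5.37 to 149 ± 119 (2.91 ± 0.69, adjusted p = 0.0212). Its large SD in physioxia reflects values of 146, 314, 104 and 33.3, of which replicate 4 was the lowest and replicate 2 the highest. Hnrnpu, Sap30 and Msl3l2 passed without any single library. Trir lost its call without WT air replicate 1, 2 or 4 or WT physioxia replicate 1 or 2 (adjusted p up to 0.0662), Habp4 without air replicate 2 or 4 or physioxia replicate 1 or 2 (up to 0.0788) and Cited4 without any library other than physioxia replicate 4 (up to 0.168) and with a pseudocount of 5 (0.0589).

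Another 6 named genes encode mitochondrial or membrane proteins or proteins of membrane traffic. Endog, the mitochondrial endonuclease G, was at 10.6, 16.1, 25.3 and 23.9 in air and at 265, 694, 157 and 74.3 in physioxia (3.51 ± 0.79, adjusted p = 0.0186). Glrx5, a mitochondrial glutaredoxin of iron-sulfur cluster assembly, was at 203, 149, 367 and 153 in air and at 2462, 7479, 1433 and 597 in physioxia (3.29 ± 0.88, adjusted p = 0.0390). Both genes spread widely over the physioxia libraries, from replicate 2, the highest, to replicate 4, the lowest, and neither overlapped with air. Mipep, the mitochondrial intermediate peptidase, was more even, at 155, 265, 544 and 208 in air and at 1523, 2269.7, 1365 and 1126 in physioxia (2.54 ± 0.43, adjusted p = 0.00955). Rab5if, which encodes the RAB5 interacting factor, had the largest difference of the genes named here (chromosome 2, 156863128 to 156873563). It was at 179.8, 233, 747 and 189 in air and at 4059, 7589, 3107 and 1388 in physioxia (3.61 ± 0.58, adjusted p = 0.00955). The lowest physioxia library of Rab5if, replicate 4, lay above the highest air library, replicate 3. Rab24, a small GTPase of autophagy, rose from 48.3 ± 14.3 to 368 ± 272 (2.64 ± 0.60, adjusted p = 0.0190), and Tmem160 from 319 ± 128 to 2327 ± 1945 (2.52 ± 0.59, adjusted p = 0.0204). Mipep and Rab5if passed without any single library. Endog lost its call without air replicate 2 or physioxia replicate 1 or 2 (adjusted p up to 0.0662), Glrx5 without any library other than air replicate 3 and physioxia replicate 4 (up to 0.139), Rab24 without air replicate 2 or 4 or physioxia replicate 1 or 2 (up to 0.0689) and Tmem160 without those or air replicate 1 (up to 0.0702).

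The remaining named higher genes have other roles. Ypel3, of the Yippee family, was at 158, 244, 860.0 and 274 in air and at 2938, 2942, 2778 and 2014 in physioxia (3.09 ± 0.57, adjusted p = 0.00964). Gmcl1, a germ cell-less homologue and Cul3 adaptor, was at 179.8, 163, 371 and 166 in air and at 1796, 2054, 1477 and 931 in physioxia (2.86 ± 0.51, adjusted p = 0.00955). Ptges2, a prostaglandin E synthase, was at 78.8, 82.5, 142 and 76.5 in air and at 801, 2435, 509.9 and 286 in physioxia (2.98 ± 0.59, adjusted p = 0.0114). In all 3 genes air replicate 3 was the highest air library, and the groups did not overlap. Fzd1, a receptor for Wnt ligands, rose from 24.2 ± 27.0 to 119 ± 23.7 (2.81 ± 0.76, adjusted p = 0.0399), and Ccsap, a protein of centrioles and the spindle, from 24.6 ± 22.5 to 136 ± 28.1 (2.78 ± 0.67, adjusted p = 0.0230). Ypel3, Gmcl1 and Ptges2 passed without any single library. Fzd1 lost its call without any library other than air replicate 3 (adjusted p up to 0.132) and with edgeR (0.0718), and Ccsap lost it without air replicate 1, 2 or 4 or physioxia replicate 1 or 2 (up to 0.0860).

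**Figure D2:**
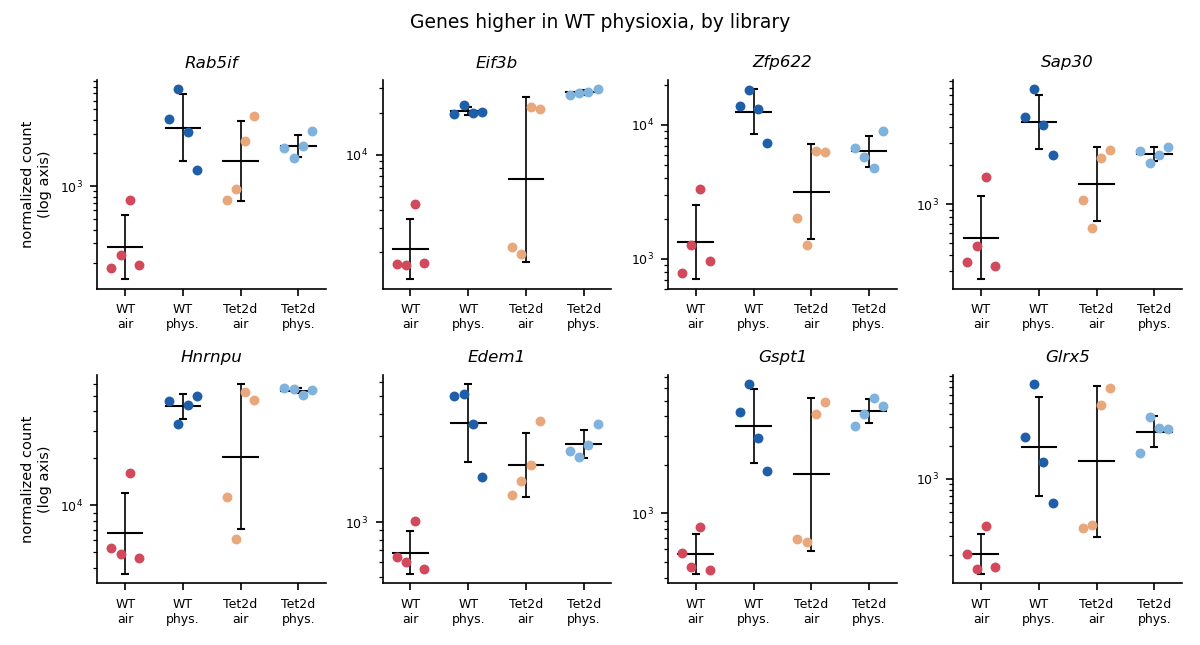
Normalized counts (log axis) of 8 genes called higher in WT physioxia, 1 point per library in each of the 4 groups, with the mean and SD taken on the log2 scale as bars. WT physioxia lies above WT air in each panel with no overlap, which was a condition of choice for part of the genes. In the Tet2-deficient air group replicates 3 and 4 (the 2 points at the right of the group) lie above replicates 1 and 2.

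The promoters of 3 of these genes are shown with their matches to ACGTG or GCGTG, the core that HIF binds. The sequences run from 250 bases before to 50 after the annotated start (RefSeq, GRCm38.p6, all on the plus strand), and capitals mark each match to ACGTG or GCGTG on either strand. The 3 genes were chosen after their values were seen, and the promoters of the other named genes are not shown. The Rab5if promoter (chr2:156862872-156863171) holds 3 matches, and those of Zfp622 (chr15:25984116-25984415) and Edem1 (chr6:108828391-108828690) hold 2 each.
Rab5if: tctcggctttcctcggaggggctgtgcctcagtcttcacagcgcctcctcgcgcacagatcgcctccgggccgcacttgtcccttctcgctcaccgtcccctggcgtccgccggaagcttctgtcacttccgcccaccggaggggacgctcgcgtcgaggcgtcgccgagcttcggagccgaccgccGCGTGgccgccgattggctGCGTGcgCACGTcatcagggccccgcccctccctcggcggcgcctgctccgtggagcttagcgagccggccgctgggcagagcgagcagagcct
Zfp622: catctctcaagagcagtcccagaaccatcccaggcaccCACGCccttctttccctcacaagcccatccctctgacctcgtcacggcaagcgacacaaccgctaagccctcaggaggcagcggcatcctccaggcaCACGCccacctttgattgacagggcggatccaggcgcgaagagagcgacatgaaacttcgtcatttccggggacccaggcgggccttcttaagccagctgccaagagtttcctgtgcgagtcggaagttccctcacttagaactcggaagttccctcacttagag
Edem1: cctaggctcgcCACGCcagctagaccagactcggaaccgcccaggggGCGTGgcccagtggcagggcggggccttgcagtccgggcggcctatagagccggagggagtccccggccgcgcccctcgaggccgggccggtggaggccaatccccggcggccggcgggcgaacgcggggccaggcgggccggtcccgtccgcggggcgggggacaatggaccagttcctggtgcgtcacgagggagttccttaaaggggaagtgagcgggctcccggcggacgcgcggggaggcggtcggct
The core is short and common: 43.8% of all 32851 RefSeq promoters of this length hold at least 1 match. Among promoters matched to tested genes the share was 59.8% (5720 promoters of 4475 of the 6110 genes), to higher genes 69.2% (286 of 237 of 300) and to lower genes 55.8% (43 of 32 of 52), with a median GC content of 60.3%, 65.0% and 60.0%. Because fewer than 80% of the genes of each set had an entry, a comparison of these shares is void and nothing is read from them. A match describes the letters only, and binding was not measured.

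Genes called higher in WT physioxia were read in the Tet2-deficient libraries, which entered the choice through the table's own gene selection, the filter on low values and the shared spread, but not through the difference tested. In that genotype 255 of the 300 genes had a physioxia mean above the air mean (85.0%, against 2997 or 49.1% of all tested genes), with a median difference of 0.40 against -0.0041 over all tested genes. Of the 52 lower genes, 44 were below 0 there, with a median of -0.24. Within Tet2-deficient cells no gene passed with limma (280 genes, 4.58%, at an unadjusted p under 0.05). The 4 Tet2-deficient air libraries were unlike each other in these genes. Eif3b was at 2179 and 1934 in replicates 1 and 2 but at 21866 and 21308 in replicates 3 and 4, while Tet2-deficient physioxia held 26995, 27693, 28081 and 29397. Hnrnpu had 11342 and 6104 against 53286 and 47526, and Glrx5 354 and 380.3 against 4815 and 6964. For each of these genes the first pair of air libraries lay near WT air and the second pair near physioxia. Over the 300 genes, the median log2 level relative to the WT air mean was 0.43, 0.26, 1.39 and 1.66 in the air libraries of Tet2-deficient cells and 1.29, 1.29, 1.43 and 1.52 in their physioxia libraries. The corresponding medians were -0.16, -0.07, 0.42 and -0.19 in WT air and 1.60, 1.75, 1.31 and 0.98 in WT physioxia. The share of the 300 genes that lay nearer to the WT physioxia mean than to the WT air mean was 28.3%, 31.7%, 84.0% and 89.7% in the Tet2-deficient air libraries. Within WT physioxia, replicate 2 was the highest library for 186 of the 300 genes (62.0%, against 37.4% of all tested genes). Replicate 4 was the lowest physioxia library, nearest to air, for 197 of the 300 (65.7%). WT air replicate 3 was the highest air library, nearest to physioxia, for 242 (80.7%). For these last 2 shares the matching share over all tested genes was not computed. The labels give no date or batch for these libraries, and what sets them apart was not tested.

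Whether the oxygen difference itself differed between genotypes was tested as an interaction. No gene passed with limma or edgeR (546 genes, 8.94%, at an unadjusted p under 0.05 with limma), and 10 passed with DESeq2. With limma 1 gene passed without WT air replicate 3, and 1 without replicate 4 of both WT groups. None of the WT differences described here can therefore be called particular to WT cells from the limma fit.

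**Figure D3:**
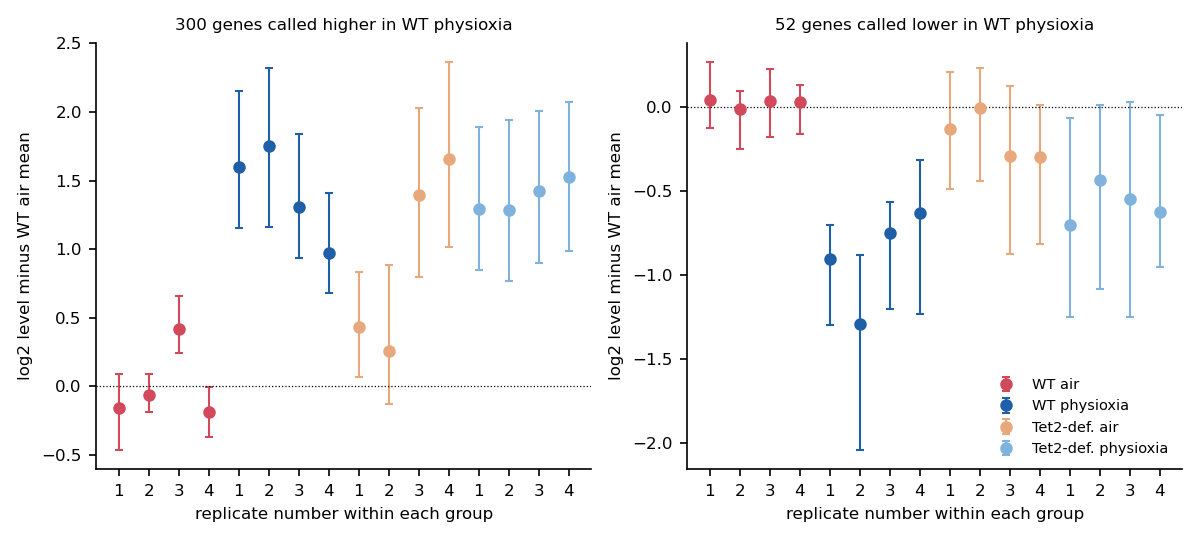
For the 300 genes called higher (left) and the 52 called lower (right), each point is 1 of the 16 libraries, in order of group and replicate number, and shows the median over genes of the log2 level minus the WT air mean, with bars for the quartiles. The WT groups separate because the genes were chosen on them, while Tet2-deficient air replicates 3 and 4, at 1.39 and 1.66 in the left panel, lie at the level of the physioxia libraries.

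Genes lower in physioxia were fewer and moved less. Mir17hg, the non-coding host transcript of the miR-17-92 cluster (lincRNA, chromosome 14, 115042879 to 115046727), was at 112, 68.4, 117 and 94.7 in air and at 20.1, 23.1, 27.2 and 31.6 in physioxia. Every physioxia library was lower than every air library, and the physioxia values lay close together. The difference was -1.89 ± 0.31 (adjusted p = 0.00955), and the call remained without any single library. The cluster is processed into 6 miRNA precursors known for keeping progenitor cells in proliferation. Reads of the host transcript do not measure the mature miRNAs. Their sequences (RefSeq, GRCm38.p6, plus strand, capitals for the seed at bases 2 to 8) are shown for the arms usually the more abundant, to make plain which seeds the host transcript carries.
mmu-miR-17-5p: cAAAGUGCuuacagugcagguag
mmu-miR-20a-5p: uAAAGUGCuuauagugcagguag
mmu-miR-18a-5p: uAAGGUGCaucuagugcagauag
mmu-miR-19a-3p: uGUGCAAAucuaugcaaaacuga
mmu-miR-19b-3p: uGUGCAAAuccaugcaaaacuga
mmu-miR-92a-3p: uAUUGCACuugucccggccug
MiR-17 and miR-20a share the seed AAAGUGC, miR-19a and miR-19b share GUGCAAA, and miR-18a and miR-92a each carry a seed of their own.

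Further named lower genes encode regulators of transcription, nuclear transport and signalling. Rn7sk, the 7SK RNA that holds the elongation factor P-TEFb inactive, was at 814, 365, 577 and 660.1 in air and at 139, 52.6, 326 and 91.3 in physioxia (-2.24 ± 0.60, adjusted p = 0.0397). Its groups did not overlap, although physioxia replicate 3 came close to the lowest air library. The 7SK gene has many near-identical copies, so that its count is uncertain. Tnpo2, a transportin of nuclear import, fell from 1302, 1683, 1081 and 1734 to 329, 222, 558 and 916 (-1.69 ± 0.32, adjusted p = 0.00995). Gdf11, a ligand of the TGF-beta family, fell from 92.3, 53.3, 115 and 89.0 to 40.1, 25.8, 27.2 and 40.1 (-1.34 ± 0.30, adjusted p = 0.0173). Numb, an inhibitor of Notch signalling, fell from 327 ± 89.0 to 147 ± 59.2 (-1.20 ± 0.30, adjusted p = 0.0260). None of the 3 genes had overlapping groups. Map3k1, a kinase upstream of JNK, fell from 407 ± 85.8 to 194 ± 83.0 (-1.17 ± 0.30, adjusted p = 0.0337), and the tyrosine kinase Tec from 401 ± 78.4 to 212 ± 74.2 (-0.97 ± 0.24, adjusted p = 0.0253). Sgk1, the serum- and glucocorticoid-regulated kinase, fell from 399.7 ± 76.0 to 237 ± 63.2 (-0.77 ± 0.20, adjusted p = 0.0302). The air and physioxia values of Sgk1 overlapped. Tnpo2 passed without any single library. Rn7sk lost its call without any library other than physioxia replicate 3 (adjusted p up to 0.139) and with edgeR (0.0634), Gdf11 without air replicate 4 or physioxia replicate 2 (0.0531), Numb without air replicate 1 or 4 or physioxia replicate 1 or 2 (0.0975), Map3k1 without those or air replicate 2 (0.0932), Tec without air replicate 1, 2 or 4 or physioxia replicate 1 (0.0819) and Sgk1 without air replicate 1 or 2 or physioxia replicate 2, 3 or 4 (0.0910).

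A further set of lower genes serves membranes, metabolism and the spindle. Olr1, a receptor for oxidised LDL, was at 520.0, 485, 409 and 532 in air and at 229, 159, 273 and 403 in physioxia (-0.94 ± 0.25, adjusted p = 0.0372), and physioxia replicate 4 nearly reached the lowest air library. Tmppe fell from 216 ± 67.7 to 99.4 ± 28.7 (-1.11 ± 0.23, adjusted p = 0.0120). Nptn, the adhesion protein neuroplastin, fell from 409 ± 86.5 to 224 ± 15.6 (-0.84 ± 0.24, adjusted p = 0.0464). Hps6, a subunit of the BLOC-2 complex of lysosome-related organelles, fell from 497 ± 81.7 to 282 ± 34.9 (-0.81 ± 0.19, adjusted p = 0.0191). The groups of these 4 genes did not overlap. Pank4, of the pantothenate kinase family, fell from 944 ± 88.4 to 552 ± 141 (-0.81 ± 0.18, adjusted p = 0.0186), and Fam83d, a spindle protein, from 435 ± 47.8 to 252 ± 28.1 (-0.79 ± 0.18, adjusted p = 0.0208). A further 4 genes did not pass in the limma fit of all libraries but did with the replicate block and with DESeq2: Ehbp1 (-0.82, block adjusted p = 0.0409, 0.0833 without it), the heat shock factor gene Hsf2 (-0.79, 0.0327 and 0.0983), the chaperone gene Hyou1 (-0.77, 0.0348 and 0.0943) and Tmem170b (-0.76, 0.0494 and 0.0545). Hyou1 and Tmem170b also passed without physioxia replicate 4 (0.0259 and 0.0104). Tmppe passed without any single library. The other calls were each lost without at least 3 of the 8 libraries, with adjusted p up to 0.110 for Olr1, 0.131 for Nptn, 0.0578 for Hps6, 0.0607 for Pank4 and 0.0715 for Fam83d. Air replicate 4 and physioxia replicate 1 were among those libraries for all 5.

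**Figure D4:**
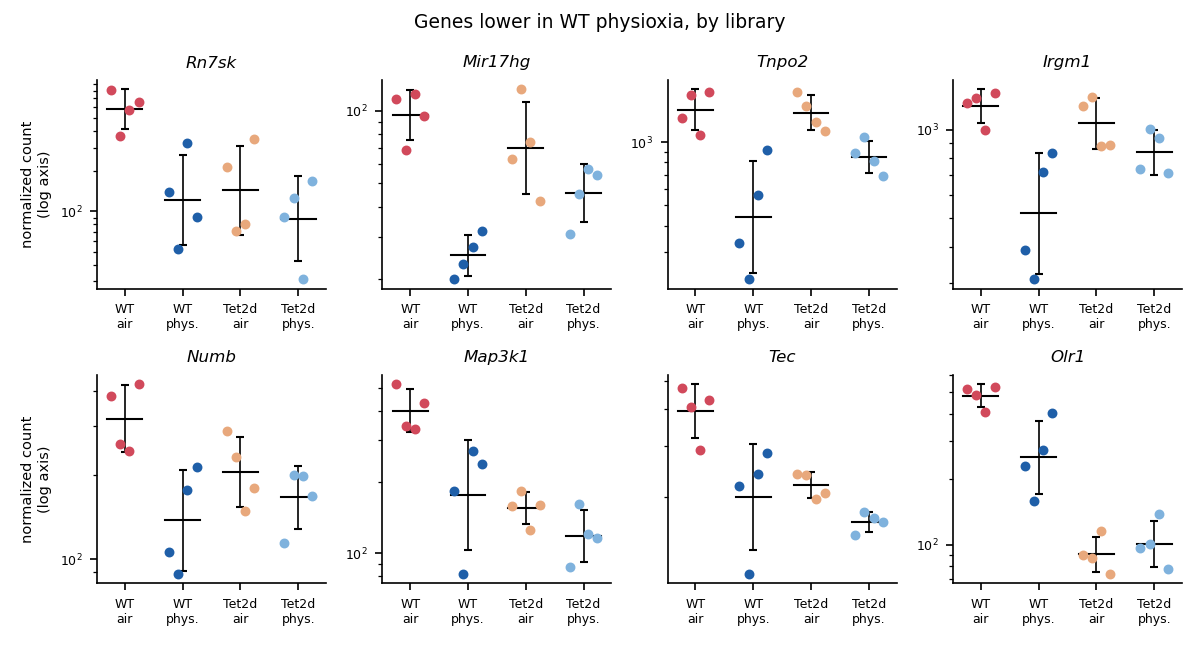
Normalized counts (log axis) of 8 genes called lower in WT physioxia, 1 point per library, with the mean and SD taken on the log2 scale as bars. Each WT physioxia group lies below WT air without overlap, which was a condition of the choice of genes. For Olr1 the Tet2-deficient libraries, at 73.6 to 139, lie below both WT groups.

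The gene lists are read next, each by its calls and its median. Leaving out 1 of the 8 WT libraries changed the sign of the median for 17 of the 27 lists. The median kept its sign for glycolysis, ATF4 and NRF2 targets, stem cell, sterol, JAK/STAT, G2/M, neutrophil, erythroid and megakaryocyte genes. Genes of the HIF pathway did not pass the test in WT cells. Of 41 listed HIF targets and oxygen sensors 16 were tested, none passed with limma or edgeR (1 in each direction at an unadjusted p under 0.05), and their median difference was -0.07 against 0.01 over all genes. Hif1a, the oxygen-regulated subunit, was at 3797, 3661, 3816 and 3558 in air and at 3078, 2139, 3994 and 3908 in physioxia (-0.22 ± 0.16, adjusted p = 0.496). Physioxia replicate 2 was the lowest, and replicates 3 and 4 lay above every air library. HIF alpha subunits are controlled mainly through protein stability, which was not measured. Pdk1, the kinase that limits pyruvate entry into mitochondria, was at 2222, 2332, 2366 and 1790.0 in air and at 2098, 2587, 1951 and 2382 in physioxia (0.05 ± 0.13, adjusted p = 0.872). Mxi1, an antagonist of Myc, was at 747, 534, 634 and 528 against 558, 608, 540.1 and 508 (-0.13 ± 0.12, adjusted p = 0.597). The groups overlapped for all 3 genes. Bhlhe40, a transcriptional repressor, had means of 13111 ± 1003 and 11793 ± 1819 (-0.16 ± 0.26, adjusted p = 0.779). Hif1an, the asparaginyl hydroxylase that inhibits HIF, was at 572, 632, 786 and 663 in air and at 474, 434, 521 and 589.8 in physioxia (-0.39 ± 0.12, adjusted p = 0.0791). It was the 1 member of the list called by DESeq2 (-0.46, adjusted p = 0.00770) and with quantile normalization (-0.47, adjusted p = 0.0284), lower in physioxia in both, and it also passed without physioxia replicate 4 (-0.47, adjusted p = 0.0323). Bhlhe41 had a difference of -1.01 ± 0.55 (adjusted p = 0.334) and Kdm4b, a histone demethylase, of 0.87 ± 0.32 (adjusted p = 0.141; 1.18 and 0.0266 without air replicate 3).

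Glucose uptake and glycolysis gave the same picture. None of 12 tested members (26 listed) passed with limma, edgeR or DESeq2, and none had an unadjusted p under 0.05. The median difference was -0.10, with 3 above 0 (1 with quantile normalization, edgeR and DESeq2). Slc2a1, the glucose transporter GLUT1, was at 1528, 1685, 1488 and 1815 in air and at 1478, 1318, 1747 and 1871 in physioxia (-0.03 ± 0.20, adjusted p = 0.954). Gapdh was at 27694, 32158, 23197 and 27803 against 27948, 27824, 27297 and 30794 (0.05 ± 0.10, adjusted p = 0.852; the sign changes with quantile normalization, edgeR and DESeq2). Neither gene separated the groups. Pfkp, a phosphofructokinase, had a difference of -0.18 ± 0.16 (adjusted p = 0.589), and the hexokinases Hk1 and Hk3 of -0.41 ± 0.21 (0.300) and -0.28 ± 0.14 (0.271).

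Antioxidant genes under the control of NRF2 lay mostly above 0. NRF2 is a transcription factor that is stabilised by oxidants and raises enzymes of glutathione and thioredoxin metabolism. Of 22 tested members 2 passed, both higher, and 20 were above 0 (17 with edgeR and with DESeq2, 13 with quantile normalization), with a median of 0.14. Over all tested genes 4.91% passed as higher. Without physioxia replicate 2 the median was 0.061, with 16 above 0. Gsr, the glutathione reductase, was at 4623, 4880.2, 4917 and 4099 in air and at 11528, 13787, 7952 and 7621 in physioxia (1.10 ± 0.27, adjusted p = 0.0260). Txnrd1, the cytosolic thioredoxin reductase, was at 1204, 1674, 1761 and 1602 in air and at 2716, 2170.1, 2538 and 2918 in physioxia (0.73 ± 0.18, adjusted p = 0.0260). For both enzymes every physioxia library was above every air library. Gclm, the modifier subunit of glutamate-cysteine ligase, did not overlap between groups either, at 366, 323, 499 and 329 against 774, 1266, 645 and 500.2 (1.00 ± 0.38, adjusted p = 0.151). Nqo1, a quinone reductase, had a difference of 0.54 ± 0.23 (adjusted p = 0.200). The summed level of the list was 137380.0 to 162490.0 in air and 164610.0 to 207890.0 in physioxia, without overlap. The sums over all genes of the table did not overlap either, at 11.61 to 11.81 M in WT air and 11.98 to 14.465 M in WT physioxia. The separation of the list's sum is therefore not particular to the list. Both calls were lost without WT air replicate 1, 2 or 4 or physioxia replicate 1, and further without physioxia replicate 2 for Gsr and 3 for Txnrd1 (adjusted p up to 0.0944 and 0.0808). Txnrd1 also lost it with the replicate block in the WT libraries alone (0.0586) and with edgeR and the block (0.0682).

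Among 16 p53 targets 3 passed, all higher in physioxia (4.91% of all tested genes did), while the median was -0.05 and 8 of the 16 were above 0. Bbc3, which encodes the pro-apoptotic protein PUMA, was at 1121, 823, 1350.1 and 1019.8 in air and at 6338, 5239.5, 4290.3 and 2111 in physioxia (1.97 ± 0.51, adjusted p = 0.0336). Gadd45a, a gene of growth arrest and DNA damage, was at 821, 1176, 1677 and 1218 in air and at 2706, 2538, 2334 and 2656 in physioxia (1.11 ± 0.31, adjusted p = 0.0450). Ei24, a membrane protein of the endoplasmic reticulum, was at 302, 242, 401 and 306 in air and at 749, 992, 583 and 559.9 in physioxia (1.19 ± 0.26, adjusted p = 0.0164). The groups of all 3 were separate. Phlda3, a repressor of Akt, overlapped between groups (1.01 ± 0.39, adjusted p = 0.155), and Sesn2, a stress sensor, had a difference of -0.51 ± 0.25 (adjusted p = 0.270). Bbc3 lost its call without any library other than air replicate 3 and physioxia replicate 4 (adjusted p up to 0.104), Gadd45a without any other than air replicate 3 (0.117) and Ei24 without air replicate 2 or physioxia replicate 1 or 2 (0.0558). With edgeR and with quantile normalization 2 of the 16 passed, without Gadd45a (0.0528 and 0.0518).

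The remaining stress lists held few calls. Over all tested genes 4.91% passed as higher and 0.851% as lower, and nothing about a list is read from a single call. Of 18 tested heat shock and unfolded protein genes 1, Edem1, passed in the limma fit of all libraries (and Hyou1, lower, under the alternatives named with it), and the median was 0.00461. Of 26 interferon-response genes 1 passed: Irgm1, an interferon-inducible GTPase, was at 1233, 1286, 999 and 1336 in air and at 389, 309.9, 721 and 832 in physioxia (-1.22 ± 0.26, adjusted p = 0.0146). All 4 physioxia values of Irgm1 were lower than the air values, and the call was lost without physioxia replicate 1 (adjusted p = 0.0542). The other 25 genes did not pass, and the list had a median of 0.04. None of 11 ATF4 targets passed with limma, edgeR or DESeq2 (none at an unadjusted p under 0.05, median 0.09).

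Immediate early genes, which respond quickly to many stimuli, and genes of the NF-kB response were also compared. On all 16 libraries and without the replicate block, none of 27 immediate early genes passed with limma or edgeR. At an unadjusted p under 0.05 there were 3 in each direction, and the median was 0.01. With edgeR and the block 1 gene passed as higher, and 2 did with the block in the WT libraries alone. Jun was at 167920.0, 157160.0, 187360.0 and 134410.0 in air and at 154480.0, 130270.0, 139980.0 and 163950.0 in physioxia (-0.13 ± 0.19, adjusted p = 0.754). Fos was at 7250.0, 7163, 3626 and 3680.4 against 8083, 3539, 3028 and 4238 (-0.23 ± 0.29, adjusted p = 0.713). Both genes overlapped fully, and Fos was about as variable within a group as between groups. Egr1 (0.39 ± 0.35, adjusted p = 0.587), Dusp1 (0.32 ± 0.30, 0.613) and Myc (-0.19 ± 0.11, 0.370) did not pass. Fosb had a difference of -0.79 ± 0.27 (adjusted p = 0.0967) and Spry2, an inhibitor of growth factor signalling, of -0.67 ± 0.21 (0.0813; 0.0178 with DESeq2 and 0.0418 without air replicate 2). Maff, a small Maf protein, reached 1.10 ± 0.37 (0.0967) and passed with the replicate block (0.0351) and with DESeq2 (0.0438). Without physioxia replicate 4, Fosb, Maff and Btg1 passed (0.0348, 0.0461 and 0.0298). Without the replicate block, none of 29 NF-kB genes passed with limma or edgeR on all 16 libraries. At an unadjusted p under 0.05 there were 1 higher and 2 lower, and the median was -0.05. With edgeR and the block, and in the WT libraries alone with or without it, 1 gene passed as higher. Bcl3, a nuclear partner of NF-kB, was at 219, 119, 291 and 152 in air and at 723, 508, 582 and 315 in physioxia, without overlap (1.46 ± 0.43, adjusted p = 0.0567; 0.0166 with the replicate block, 0.0136 with DESeq2, 0.0444 without air replicate 3 and 0.0298 without physioxia replicate 4). Il6 had means of 106 ± 15.2 and 108 ± 25.2.

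Stem cell genes were read next. Of 22 tested genes associated with long-term stem cells 2 passed, both higher (against 4.91% of all tested genes), 17 were above 0 (12 with quantile normalization) and the median was 0.16 (0.047 without physioxia replicate 1). Cdkn1c, the cyclin-dependent kinase inhibitor p57 of quiescent stem cells, was at 3.85, 2.01, 9.91 and 0.957 in air and at 24.8, 90.4, 19.5 and 13.7 in physioxia (2.79 ± 0.62, adjusted p = 0.0169). The groups did not overlap, but the air values amount to a few reads, and the difference was 1.97 with a pseudocount of 5. Lmo2, an adaptor of the stem cell and erythroid transcription complex, was at 1713, 4118, 5622 and 4249 in air and at 8209, 9208, 7909 and 7828 in physioxia (1.20 ± 0.28, adjusted p = 0.0223). Air replicate 1 was the lowest for Lmo2, and the physioxia libraries were all higher and alike. Nkx2-3 (1.43 ± 0.47, adjusted p = 0.0961; 0.0184 with the replicate block) and Trim47 (0.98 ± 0.32, 0.0962; 0.0382) did not pass without the block, except without physioxia replicate 4 (0.0437 and 0.0383) and, for Nkx2-3, without air replicate 1 (0.0410). Trim47 also passed with DESeq2 (0.0384). Procr, the endothelial protein C receptor that marks stem cells, was at 238, 187, 214 and 171 in air and at 254, 208, 273 and 179 in physioxia (0.17 ± 0.17, adjusted p = 0.626). Kit had a difference of -0.38 ± 0.18 (adjusted p = 0.265), and for both receptors the groups overlapped. Cdkn1c lost its call without air replicate 2 or 4 or physioxia replicate 2 (adjusted p up to 0.0607) and Lmo2 without physioxia replicate 1 or 2 (up to 0.0673). In a bulk sample, fewer cells of a type and less RNA per cell cannot be told apart, here and for the markers that follow.

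Markers of the lineages that an enriched marrow sample can hold showed isolated calls. Over all tested genes 4.91% passed as higher, and the median difference was 0.01. A single call in a list is not read as a result about the list. Camp, the cathelicidin of neutrophil granules, was at 360.5, 204, 166 and 107 in air and at 529, 698, 554 and 512 in physioxia (1.57 ± 0.40, adjusted p = 0.0305). It was the 1 of 15 tested mature neutrophil markers to pass, 14 were above 0 (13 with quantile normalization) and the median was 0.40 (0.24 without air replicate 3 to 0.76 without air replicate 1). The air libraries of Camp differed by several fold among themselves, and all lay below the physioxia libraries. S100a9 (1.11 ± 0.57, adjusted p = 0.306) and Ltf (0.90 ± 0.43, 0.263) overlapped between groups, and Padi4 had a difference of -0.35 ± 0.13 (0.155). The summed neutrophil markers ranged from 14407 to 34507 in air and from 17760.0 to 39841 in physioxia. Myb, a transcription factor of progenitors, was the 1 of 14 myeloid progenitor genes to pass, at 2762, 2452, 3830.0 and 2865 in air and 4722, 4799, 4619 and 4990.0 in physioxia (0.70 ± 0.15, adjusted p = 0.0153). Cebpe, of granulocyte maturation, did not overlap between groups (0.83 ± 0.26, adjusted p = 0.0743; 0.0367 with the replicate block). Gp5, a platelet glycoprotein, was the 1 of 14 megakaryocyte genes to pass, at 46.1, 17.1, 48.5 and 23.9 in air and 149.8, 218, 142 and 70.0 in physioxia (2.08 ± 0.58, adjusted p = 0.0451). Plvap, a protein of endothelial fenestrae, was the 1 of 9 stromal and endothelial markers to pass, with overlapping values of 67.3, 45.3, 95.8 and 25.8 against 172, 147, 163 and 91.3 (1.39 ± 0.39, adjusted p = 0.0456), while the summed markers were 21437 to 22225 in air and 21418 to 23632 in physioxia. Camp lost its call without any library other than air replicate 1 and physioxia replicate 4 (adjusted p up to 0.109), Gp5 and Plvap without any other than air replicate 3 and physioxia replicate 4 (up to 0.145 and 0.153) and Myb without air replicate 2 (0.0543). Gp5 also lost it with the replicate block in the WT libraries alone (0.0502), and Plvap with edgeR (0.0639) and with quantile normalization (0.0513).

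None of the other lineage lists held a call in the fits of all 16 libraries without the replicate block (limma, edgeR or DESeq2). Of 32 erythroid genes 25 were above 0 (22 with quantile normalization, edgeR and DESeq2). Their median was 0.22, against 0.01 over all tested genes, and 1 gene had an unadjusted p under 0.05. Without physioxia replicate 2 the median was 0.035, with 19 above 0, and without air replicate 2 it was 0.45. Klf1, the erythroid master regulator, was at 894, 1694, 1103 and 1083 in air and at 1209, 2672, 1005 and 1244 in physioxia (0.29 ± 0.35, adjusted p = 0.699). The erythroid carbonic anhydrase gene Car1 was at 3156, 5899, 4872 and 5100.1 against 4932, 11301, 6669 and 9430.2 (0.73 ± 0.34, adjusted p = 0.249). In both genes physioxia replicate 2 was the highest library, and the groups overlapped. Car1 passed with the replicate block in the WT libraries alone (0.0358). The summed erythroid genes were 46661 to 75031 in air and 55531 to 101420.0 in physioxia. Of 34 T and NK cell markers 28 were above 0 (21 with quantile normalization), with a median of 0.17 and none at an unadjusted p under 0.05. That direction turned when 1 library was left out: without physioxia replicate 1, 11 were above 0 with a median of -0.09, and without air replicate 4, 16 with a median of -0.010. Basophil, mast cell and eosinophil markers had a median of -0.03 over 29 genes and sums of 537680.0 to 579880.0 in air and 441270.0 to 721950.0 in physioxia. Epx had a difference of -0.66 ± 0.32 (adjusted p = 0.273), while Cpa3, the mast cell carboxypeptidase, was at 5759.8 ± 613 and 7898 ± 1069.6 without overlap (0.45 ± 0.16, 0.129). Monocyte, B cell and dendritic cell markers had medians of -0.13, 0.14 and 0.03. The dendritic cell factor gene Zbtb46 (1.11 ± 0.37, adjusted p = 0.0947) passed with the replicate block (0.0327) and without air replicate 1 (0.0494). The part of these lineage markers in the other differences was not tested.

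**Figure D5:**
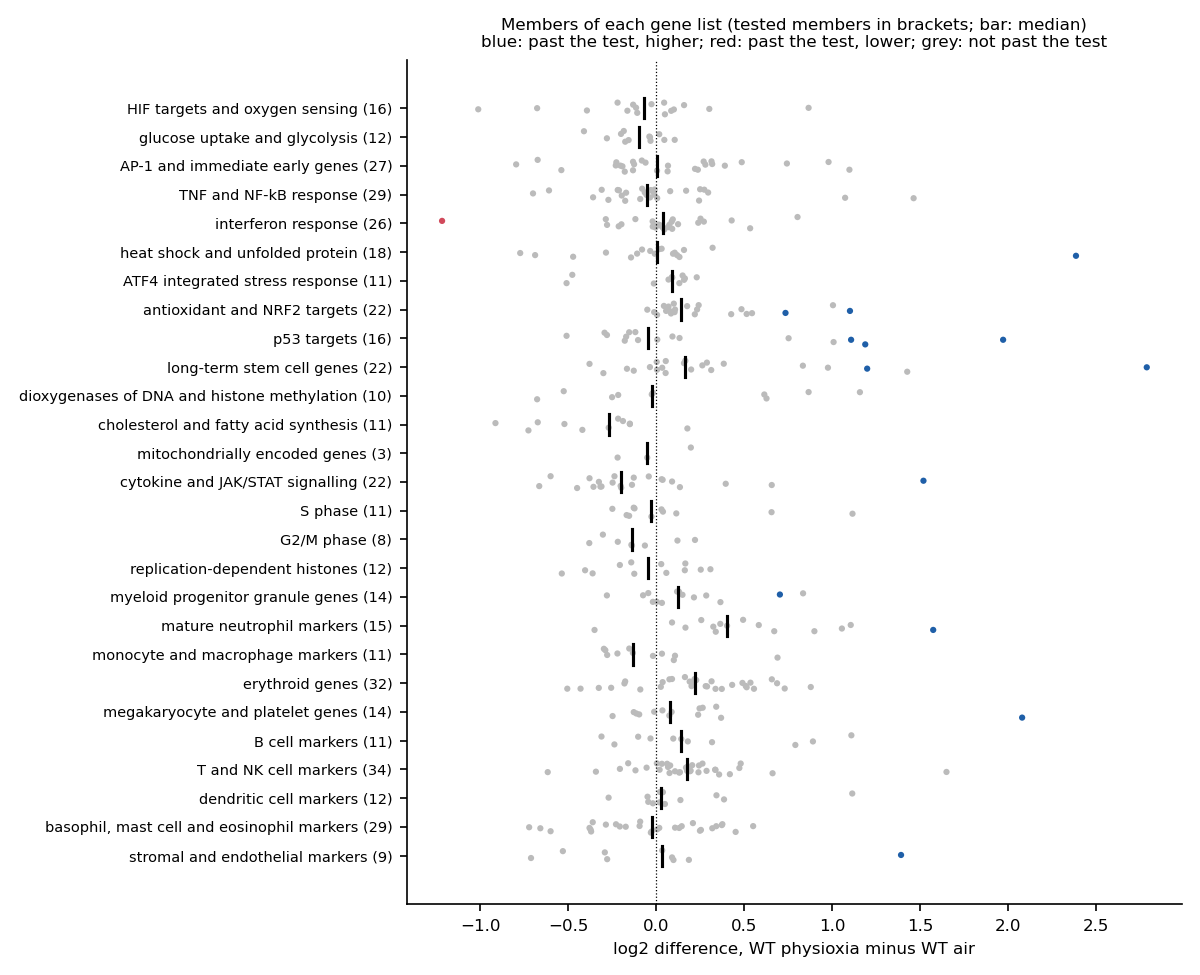
Each point is a tested member of a gene list, placed by its log2 difference, WT physioxia minus WT air, with the list and its number of tested members on the vertical axis and a bar at the list's median. Blue points passed as higher and the red point, Irgm1, as lower. HIF targets and glycolysis hold grey points only, and antioxidant genes lie mostly to the right of 0.

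Enzymes that use oxygen to remove methyl groups, sterol synthesis, cytokine signalling and the cell cycle complete the lists. No gene of 10 dioxygenases and DNA methyltransferases passed with limma or edgeR on all 16 libraries without the replicate block. At an unadjusted p under 0.05 there were 3 higher and 1 lower, and the median was -0.02. With edgeR and the block 1 gene passed as higher. Tet1, which oxidises 5-methylcytosine, was at 341, 392, 372 and 390.3 in air and at 321, 155, 290.0 and 313 in physioxia (-0.52 ± 0.19, adjusted p = 0.122; 0.0391 with DESeq2). Its groups did not overlap, and physioxia replicate 2 was far below the rest. The histone demethylase gene Kdm5b was at 1296 ± 333 and 1966 ± 355 (0.61 ± 0.19, adjusted p = 0.0683; 0.0257 with the replicate block and 0.0175 without air replicate 3), and Kdm6b had a difference of -0.68 ± 0.38 (0.351). Of 11 genes of cholesterol and fatty acid synthesis 10 were below 0 in every scaling tried, with a median of -0.27 (-0.13 without physioxia replicate 2), and none passed with limma, edgeR or DESeq2 (2 lower at an unadjusted p under 0.05). Fasn, the fatty acid synthase, was at 1729, 2357, 3104 and 2821 in air and at 1428, 544, 1454 and 2513 in physioxia (-0.91 ± 0.34, adjusted p = 0.144), and the desaturase Scd2 at 1996, 2132, 1617 and 2569.7 against 1029, 760.0, 1569 and 1927 (-0.73 ± 0.24, 0.0943). Physioxia replicate 2 was the lowest library for both, and the groups overlapped. Both passed without physioxia replicate 4 (-1.23 with an adjusted p of 0.0246 for Fasn, -0.94 with 0.0187 for Scd2). Of 22 cytokine and JAK/STAT genes 1 passed, as higher, where 4.91% of all tested genes did. The ligand gene Tgfb1 was at 438, 392, 926 and 301 in air and at 1879.5, 1038, 1335 and 1249.6 in physioxia, without overlap (1.52 ± 0.42, adjusted p = 0.0464). That call was lost without any library other than air replicate 3 (adjusted p up to 0.151), with edgeR (0.0681) and with quantile normalization (0.0546). The list's median was -0.20, with 15 of 22 members below 0 (-0.05 and 13 without physioxia replicate 2), among them Tyk2 (-0.66 ± 0.27, adjusted p = 0.185; 0.0405 without physioxia replicate 4) and Csf2rb, a shared receptor subunit for IL-3, IL-5 and GM-CSF (-0.60 ± 0.26, 0.217). Cell cycle genes did not pass in the fits of all 16 libraries with limma, edgeR or DESeq2, and 1 S phase gene passed as higher in the WT libraries alone with the replicate block. The medians were -0.03 over 11 S phase genes (1 at an unadjusted p under 0.05), -0.14 over 8 G2/M genes (also 1) and -0.05 over 12 histone genes (none), with Ccne1 at 1.12 ± 0.52 (adjusted p = 0.250) and Plk1 at -0.30 ± 0.13 (0.206). The 3 mitochondrially encoded genes tested had a median of -0.05, and none had an unadjusted p under 0.05.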

How the data were processed

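RNA was measured in 16 libraries by RNA-seq with a low-input kit, with about 30 M reads per sample and an RNA integrity number over 7, per the labels. The authors deposited a table of signal values, named as DESeq2-normalized: the reads of each gene scaled by a size factor of its library. FastQC, cutadapt, STAR, HTSeq, DESeq2 and GRCm38 are named, per the submitters' processing notes, with no versions. Strand and overlap settings of the counting, and how genes were chosen for the table, are not given in the sources used here, so reads of overlapping genes could not be told apart. All values were whole multiples of 1 read (100.0% within 0.01 reads), so whole reads were recovered, 7.77 to 15.68 M per library. Replicates of a group differed beyond counting noise (chi-square per degree of freedom of at least 14.9). No column belongs to other samples.

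The test covered 6110 genes, those reaching 10 normalized counts in 4 or more libraries (178 did not). On log2 values, after adding 1, differences were fitted with limma 3.58.1 in R 4.3.3 (intensity trend, all 16 libraries in 1 fit, a mean per group, two-sided, Benjamini-Hochberg adjusted p under 0.05). Alternatives were other pseudocounts, filters and scalings, the replicate block, edgeR 4.0.16 and DESeq2 1.42.0 on recovered reads, and leaving out libraries or pairs. Limma, with and without the block, and edgeR were run on simulated reads with known changes. Those reads had the same spread setting for every gene, no deviating libraries, no pairs and no choice of genes by p. They therefore lend no support to the calls in the real data. The SD given with a level is over its 4 libraries, and the SE given with a difference comes from the fit.

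Replicate numbers were taken to pair the WT libraries in the replicate block and in part of the naming of genes. The main fit left the pairing out and treated all libraries as independent, because the labels name DESeq2 but state no design. In the fits of all 16 libraries, the block also paired the Tet2-deficient libraries. The reason for pairing was that deviations from the group means of same-numbered WT libraries correlated at 0.33, 0.18, 0.16 and 0.33. In Tet2-deficient cells the same correlations were 0.32, -0.27, 0.04 and -0.0061. The spread shared in the block fits of all libraries thus rests partly on pairs without such a correlation. Symbols and GRCm38 positions came from GENCODE by identifier (6278 genes, 10 unmatched), and promoters and miRNAs from RefSeq.

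Genes named were the 12 largest calls per direction with no overlap between groups and a WT mean of 50 or more (no immunoglobulin, T cell receptor, Gm or Rik symbols), 8 more per direction from the block fit with all pairs in 1 direction, up to 4 members of each of 27 lists by smallest p, and a fixed set of oxygen, stress and stem cell genes, of which Gata2 was not analysed here; 1 gene that the rule named is not reported here. Members and lists were chosen with earlier results of these data known.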

Additional observations from a re-analysis of the deposited data

Results flagged for a closer look

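Among the values reported, 220 groups of 4 libraries were checked for a library whose gap to the next one took most of the group's range, and 18 were found; chance alone gives about 1 in 20. WT air replicate 3 was far above the other air libraries for Rab5if (747 normalized counts), Msl3l2 (74.9), Eif3b (4469), Ypel3 (860.0), Sap30 (1618), Ptges2 (142), Gmcl1 (371) and Hnrnpu (16233), all called higher in physioxia, and far below them for Hk3 (9051). WT air replicate 1 was far above the others for Btg1 (4647), an antiproliferative gene.

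WT physioxia replicate 2 stood apart from the other physioxia libraries in its sum of normalized counts, 14.465 M. It was far above them for Ccsap (178), Klf1 (2672), Nqo1 (398) and Cdkn1c (90.4), and far below them for Pfkp (1660.1), Csf2rb (295) and Kdm4b (461). What sets these 3 libraries apart was not tested.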

How the results depend on the processing

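Of 108 genes chosen by the naming rule or the lists, 49 were called, and none of the 49 changed sign in any of 24 alternatives. For genes whose groups did not overlap, leaving out libraries could not change the sign. Leaving out 1 library, or 1 pair of libraries with the same number, gave 0 to 554 genes past the threshold, 0 to 395 higher, 0 to 159 lower, and 0 to 1 for the difference between genotypes. Calls of 14 genes remained without any single library, and none without pair 1 or pair 2. The replicate block gave 462 calls, 393 higher, and added 11 of the 108 genes while losing none. The WT libraries alone gave 20 lower genes, 24 with the replicate block, and of the 49 calls 14 and 17 were lost in these. Quantile normalization gave 79 lower genes. DESeq2 gave 548 genes, 393 higher and 155 lower, and 10 for the difference between genotypes. With annotated genes absent from the table added as unchanged, 0 passed in total and in each direction. The cause of these shifts was not tested, other than that fewer samples enter the left-out fits and more genes the last one.

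Sign changes occurred only among uncalled genes. Pdk1 was at -0.033 with quantile normalization, -0.0011 with edgeR and -0.014 with DESeq2. Gapdh was at -0.13, -0.012 and -0.029 in these, and -0.0023 with edgeR and the replicate block. Il6 was at -0.11, -0.023, -0.048 and, with edgeR and the block, -0.042. Over the left-out libraries and pairs, Slc2a1 ranged from -0.12 to 0.076, Pdk1 from -0.071 to 0.16, Gapdh from -0.036 to 0.13, Pfkp from -0.31 to 0.033, Fos from -0.52 to 0.033, Dusp1 from -0.0058 to 0.61, Il6 from -0.11 to 0.14 and Klf1 from -0.015 to 0.47.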
